A study of Mus musculus with 6 samples.

Results

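The developmental pluripotency-associated (Dppa) genes Dppa2, Dppa3, Dppa4 and Dppa5a were followed in mouse embryonic stem cells whose protein synthesis had been blocked. They were found by their symbols, and these 4 genes are 4 of the 17485 gene rows that each count file holds. RNA was counted in 6 bulk libraries of the E14 line of mouse embryonic stem cells (129/Ola background), kept pluripotent in serum with leukaemia inhibitory factor. The 3 groups had 2 libraries each. Treated cells received cycloheximide, a drug that stops translation elongation, for 3 h or 6 h from 24 h after seeding, at 250 µg/mL and with 0.007% ethanol. Control cells received ethanol without the drug for 9 h, so the drug and the hours of exposure differ together between groups and cannot be told apart. The labels do not say whether the libraries of a group came from separate cultures, so the p-values measure only the spread between these samples, which may be technical.

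Dppa genes are grouped by name, not by one protein family. Dppa2 and Dppa4 are related SAP-domain proteins that bind each other and DNA, keep promoters with mixed histone marks open to activation, and switch on genes of the 2-cell embryo. Dppa3, also called Stella, is a maternal and germ line protein that protects the egg's DNA methylation after fertilisation and limits the maintenance methylation factor Uhrf1. Dppa5a, also called Esg1, is a KH-domain RNA-binding protein of undifferentiated stem cells.

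After 6 h of cycloheximide Dppa5a fell to 0.774 of its control level, while neither Dppa2 nor Dppa4 passed the test. With libraries scaled by their totals alone Dppa2 passed and Dppa5a did not, so this contrast depended on the scaling. The Dppa5a call also depended on single libraries. Dppa3, which had no counts in control, was present at a low level at 6 h, with 96 counts over both libraries. At 3 h against control none of the 4 passed, and the same held for 6 h against 3 h. Levels are given as CPM, each count relative to its library's total after scaling by trimmed mean of M values (TMM), and a gene was called changed at an adjusted p under 0.05 by edgeR's quasi-likelihood test over 12755 tested genes.

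In the GENCODE M21 annotation of GRCm38, the assembly also named mm10, Dppa4 (chr16:48283733-48294237) and Dppa2 (chr16:48303908-48319723) lie on the plus strand of chromosome 16 with 9.67 kb between them. Dppa3 (chr6:122626410-122630272, plus strand) and Dppa5a (chr9:78367052-78368177, minus strand) are on other chromosomes. Each gene shares stretches of sequence with other annotated genes, some of them pseudogenes, which limits what a count assigned to it can mean. Of all 50-base windows along the transcript, 29.1% for Dppa2, 35.9% for Dppa4, 17.7% for Dppa3 and 38.6% for Dppa5a also occur in another annotated transcript. How reads that match several places were counted is not given in the sources used here, so the counts of all 4 genes are uncertain to that extent. The other genes that hold these windows are not rows of the count files, apart from Pigp, which shares windows with Dppa5a. The stretch from base 4 to base 63 of the coding sequence shows how close some of these genes are to Dppa5a or Dppa3. Capitals mark bases that differ from Dppa5a or Dppa3, and positions are counted from 1 at the left end of the stretch.
Dppa5a: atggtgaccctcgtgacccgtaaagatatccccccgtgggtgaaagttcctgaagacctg
Dppa5b: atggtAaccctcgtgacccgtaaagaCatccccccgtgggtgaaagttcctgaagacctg
Dppa3: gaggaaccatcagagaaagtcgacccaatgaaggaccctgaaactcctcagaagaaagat
Dppa3-ps: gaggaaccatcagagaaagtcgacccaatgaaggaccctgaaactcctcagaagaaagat
Dppa5b, an unprocessed pseudogene on chromosome 9, differed from Dppa5a at 2 bases of these 60 (G6A and T27C), and so did Dppa5c. Dppa3-ps, a transcribed processed pseudogene on chromosome X, had 0 differences from Dppa3.

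Library totals were 9385447 to 15423587 counts in control, 15297359 to 16760304 at 3 h and 23121225 to 27351079 at 6 h. Counts from mitochondrially encoded genes made up 24.7 to 24.9% of the control libraries, 18.9 to 19.6% at 3 h and 16.6 to 17.4% at 6 h. All 8 embryonic stem cell markers were above 1 CPM in control, including Pou5f1 at 136 to 152 CPM, so the defining markers of the labelled cell type were present. Their summed level was 4926 to 5208 CPM in control libraries and 6213 to 6266 CPM at 3 h. At 6 h it was 4095 to 4260 CPM, where Dppa5a was also lowest. Sox2 was the largest part of this sum, at 2281 and 2601 CPM in control and 3847 and 3956 CPM at 3 h. At 6 h Sox2 was at 2337 and 2376 CPM, so the higher sum at 3 h rests on Sox2 and is not a rise of all the markers. The summed level of 6 primitive endoderm markers was 5.85 to 7.82 CPM in control libraries, 15.4 to 19.06 CPM at 3 h and 12.7 to 15.02 CPM at 6 h. That of 4 trophectoderm markers was 4.89 to 9.04, 7.55 to 9.59 and 10.95 to 11.5 CPM in the same order, with Krt7 at 0 in both control libraries. For 4 fibroblast markers it was 7.92 to 10.1, 4.39 to 7.68 and 2.99 to 6.10 CPM, with Col1a2 at 0 in both control libraries. The 4 primed epiblast markers summed to 94.4 to 146 CPM in control libraries, 91.3 to 98.3 CPM at 3 h and 60.03 to 67.8 CPM at 6 h. That sum is mostly Pou3f1 and Dnmt3b, while Otx2 went from 0.889 and 0.244 CPM in control to 5.11 and 3.83 CPM at 6 h. The higher trophectoderm sum at 6 h rests on Gata3, at 1.56 and 0.611 CPM in control and 6.14 and 7.13 CPM at 6 h. Eomes was at 7.48 and 4.15 CPM in control and 4.78 and 4.10 CPM at 6 h. The 2 control libraries, on which every comparison with control rests, lay far apart on the second principal component (53.8 and -47.6), with the other 4 libraries between -11.4 and 14.4. The part of these other cell types, and of the summed stem cell markers, in the results below was not tested, and in bulk libraries fewer cells of a type and less RNA per cell cannot be told apart.

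Dppa2 was counted 1678 to 7034 times per library and stood at 191 and 205 CPM in control, 215 and 215 CPM at 3 h, and 232 and 264 CPM at 6 h. The 2 control libraries were thus the lowest and the 6 h libraries the highest, with no overlap between any 2 groups. The mean was 198 ± 9.69 CPM (SD, n = 2) for control libraries, 215 ± 0.466 CPM for 3 h and 248 ± 22.3 CPM for 6 h. The log2 difference from control was 0.12 ± 0.11 (SE) at 3 h, with an edgeR adjusted p of 0.55. At 6 h it was 0.32 ± 0.11, with an edgeR p of 0.0183 before and 0.0588 after adjustment, so Dppa2 missed the threshold. The difference between 6 h and 3 h was 0.20 ± 0.11 (edgeR adjusted p = 0.37). Neighbouring groups in this order therefore did not differ beyond what the fit allows, although every treated library lay above every control library.

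Dppa4, the partner of Dppa2, followed another course. It was counted 744 to 2767 times per library, and its level was 92.9 and 90.9 CPM in control, 80.2 and 79.3 CPM at 3 h, and 91.3 and 81.6 CPM at 6 h. The 3 h libraries were the lowest of the 6, while one 6 h library lay between the control libraries and the other below them. The control mean was 91.9 ± 1.42 CPM (SD, n = 2), the 3 h mean 79.8 ± 0.679 CPM and the 6 h mean 86.5 ± 6.80 CPM. The log2 difference from control was -0.20 ± 0.12 (SE) at 3 h (edgeR adjusted p = 0.33) and -0.09 ± 0.12 at 6 h (edgeR adjusted p = 0.618). Between 6 h and 3 h it was 0.12 ± 0.12 (edgeR adjusted p = 0.657), so no pair of groups differed by the test.

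Dppa5a was the most abundant of the 4 genes, with 12930 to 38936 counts per library. It was recovered at 1677 and 1579 CPM in control, 1405 and 1591 CPM at 3 h, and 1284 and 1236 CPM at 6 h. Control and 3 h libraries overlapped, and both 6 h libraries were below all others. Means were 1628 ± 69.5 CPM (SD, n = 2), 1498 ± 131 CPM and 1260 ± 34.2 CPM in that order. At 6 h Dppa5a fell by 0.37 on the log2 scale against control (SE 0.10, edgeR adjusted p = 0.0243), and 25.2% of tested genes had a lower fold change. At 3 h the difference was -0.12 ± 0.10 (edgeR adjusted p = 0.489), and from 3 h to 6 h it was -0.25 ± 0.10 (edgeR adjusted p = 0.229). The 6 h call was lost without control library 1 (-0.33, edgeR adjusted p = 0.0659), without 6 h library 1 (-0.40, 0.0821) or without 6 h library 2 (-0.34, 0.129). It was also lost when libraries were scaled by their totals alone (-0.01, edgeR adjusted p = 0.926).

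**Figure D1:**
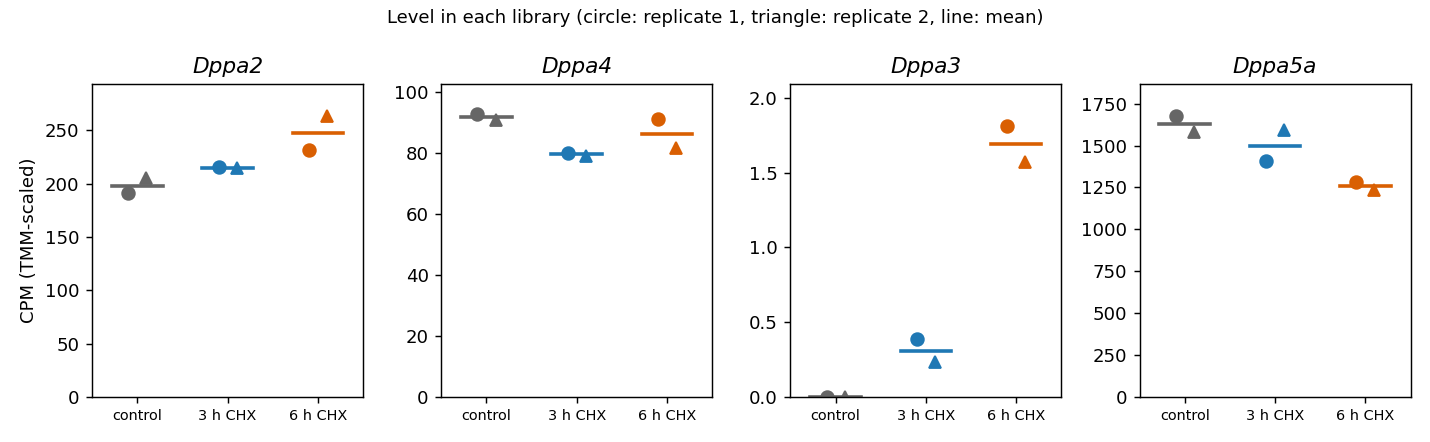
Level of each Dppa gene in each library, in TMM-scaled CPM on axes that start at 0, for control, 3 h and 6 h of cycloheximide. Circles are replicate 1, triangles replicate 2 and lines the group mean (n = 2). Both 6 h libraries of Dppa5a, at 1284 and 1236 CPM, lie below the others, and Dppa3 is at 0 in both control libraries.

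Dppa3 had 0 and 0 counts in the control libraries, 6 and 4 counts at 3 h, and 55 and 41 counts at 6 h. These correspond to 0 and 0 CPM, 0.387 and 0.231 CPM, and 1.81 and 1.57 CPM. The groups did not overlap, but the 3 h values rest on few counts, with exact Poisson 95% intervals of 2.20 to 13.1 and 1.09 to 10.2 counts. A count of 0 allows up to 3 counts, or 0.222 and 0.366 CPM in the control libraries, and both limits and intervals cover counting error only. The 3 h value of 0.231 CPM is below the limit of 0.366 CPM in a control library, so that pair of libraries does not show a difference. Pooled over the 3 h group, the 10 counts taken as they stand gave 0.305 CPM. This is above a floor of 3 counts over the control group (0.138 CPM). Across libraries the difference between 3 h and control did not pass by edgeR. Against the same floor, the pooled level of Dppa3 at 6 h, its 96 counts taken as they stand, was at least 12.3-fold higher. From 3 h to 6 h the pooled level was 5.58-fold higher, with a 95% counting interval of 2.91 to 12, but across libraries the difference did not pass (log2 2.44 ± 0.72, edgeR adjusted p = 0.139).

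Dppa3 passed the filter on low counts through its 6 h libraries alone, so a higher level there was built into its being tested. Its 6 h call by edgeR is therefore not counted as a result, and its counts are given as a description. Among tested genes, 93 (0.729%) had 0 counts in both control libraries, and 7 of these had more counts at 6 h than Dppa3. With every library thinned to the smallest total in 1 random draw, Dppa3 kept 0 and 0 counts in the control libraries, 3 and 1 at 3 h, and 7 and 16 at 6 h. In that draw both 6 h libraries thus held more Dppa3 counts than the other 4 at equal totals. The gap between 7 and 16 includes the error of the draw, since before thinning the 6 h libraries stood at 1.81 and 1.57 CPM. Thinning equalised the totals alone, and the TMM factors of 0.872 to 0.875 in control and 1.11 to 1.13 at 6 h still differed.

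Set against all genes, Dppa5a was called lower at 6 h against control, and Dppa2 and Dppa4 were not called. In that comparison 29% of tested genes were called (14.8% higher and 14.3% lower). Dppa3 is left out of it, since it was tested only through its 6 h libraries. At 3 h against control edgeR called 0 of 4, where 4.9% of tested genes were called (3.6% higher and 1.3% lower). There 1 of 4, Dppa3, had an unadjusted p under 0.05, beside 3149 of all 12755 tested genes. At 6 h against 3 h edgeR called 0 of 4, where 1.64% were called (0.455% higher and 1.18% lower). There Dppa5a had an unadjusted edgeR p under 0.05, beside 2315 of all 12755 tested genes. Dppa3 did too, but its p is not counted, since it was tested only through its 6 h libraries. limma-voom called none of the 4 in either comparison, and neither did DESeq2, which gave no adjusted p for Dppa3. At 3 h against control 2 of 4 lay above every control library and 1 below, where 28.4% and 24.8% of tested genes did. At 6 h it was 2 above and 1 below (35.7% and 31.2%), and at 6 h against 3 h it was 3 above and 1 below (27.2% and 26.9%). Dppa3 is among those above each time, and for the 6 h libraries the filter on low counts built that in. Both comparisons with control share the same control libraries.

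The direction of the small differences depended on how libraries were scaled. With library totals alone the median log2 difference of all tested genes was 0.25 at 3 h and 0.40 at 6 h, against 0.02 and 0.04 with TMM scaling. Dppa2 was then called at 6 h (0.68, edgeR adjusted p = 0.00316), and Dppa4 moved from -0.09 to 0.27 (edgeR adjusted p = 0.112). At 3 h Dppa4 moved from -0.20 to 0.02 and Dppa5a from -0.12 to 0.11, neither of which passed. A stricter filter of 50 counts also brought Dppa2 at 6 h past the threshold (0.35, edgeR adjusted p = 0.0366). Removing mitochondrially encoded genes before scaling left Dppa5a at -0.37 and Dppa2 at 0.32 at 6 h.

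**Figure D2:**
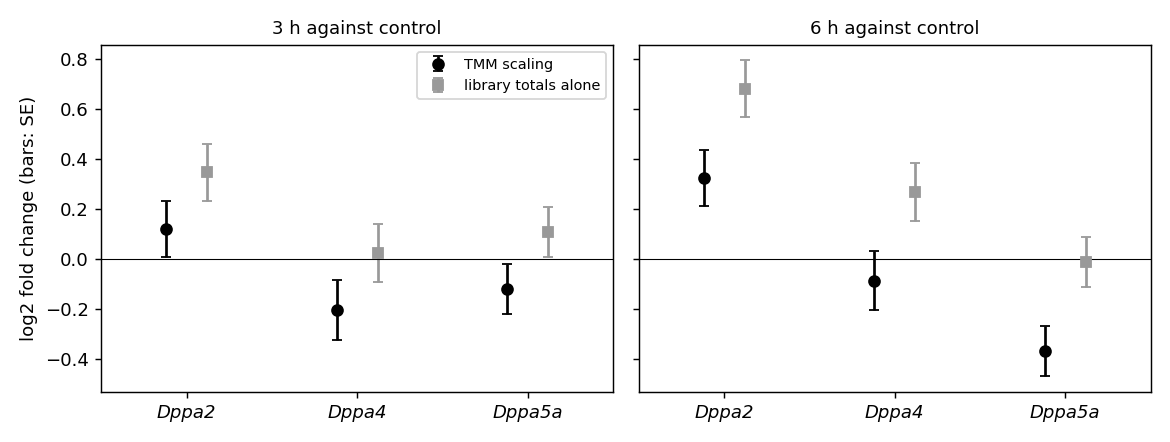
Log2 fold change against control at 3 h and 6 h for Dppa2, Dppa4 and Dppa5a with TMM scaling (black circles) and with library totals alone (grey squares); bars are the SE of the fit. All values move up with library totals, Dppa5a at 6 h from -0.37 to -0.01.

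Ratios between members within a library do not depend on the scaling. The ratio of Dppa2 to Dppa4 counts was 2.06 and 2.26 in the control libraries, 2.68 and 2.71 in the 3 h libraries, and 2.54 and 3.23 in the 6 h libraries. All 4 treated libraries were above both control libraries, and the 3 h values lay within the range of the 6 h values. Dppa2 to Dppa5a gave 0.114 and 0.130 without the drug, 0.153 and 0.135 at 3 h, and 0.181 and 0.213 at 6 h, with no overlap between groups. Dppa4 to Dppa5a gave 0.0554 and 0.0575 without the drug, 0.0571 and 0.0498 at 3 h, and 0.0711 and 0.0661 at 6 h. Only the 6 h libraries stood above the others in that last ratio. Dppa3 counts per 1000 Dppa5a counts were 0 and 0 without the drug, 0.276 and 0.145 at 3 h, and 1.41 and 1.27 at 6 h. No test of these ratios was run, and an exact two-sided permutation test of 2 libraries against 2 gives no p under 0.333.

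**Figure D3:**
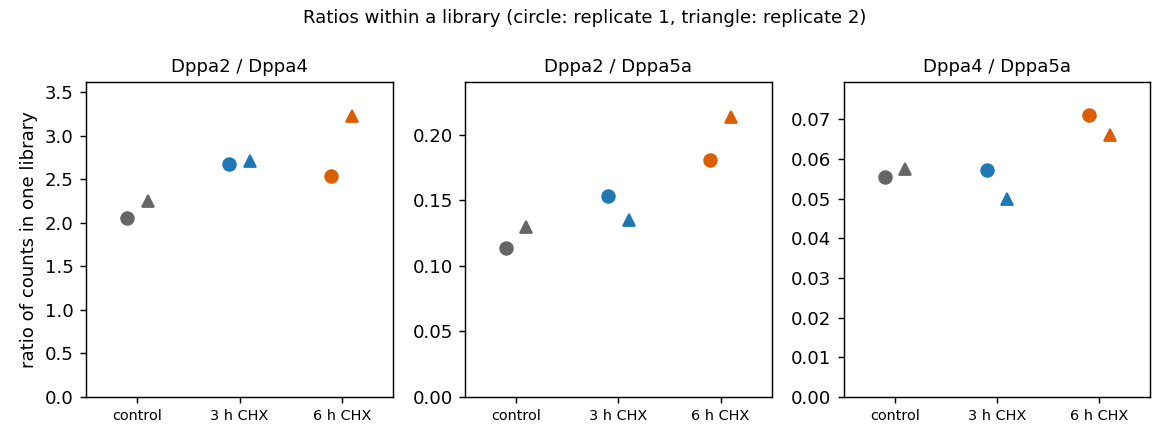
Ratio of the counts of 2 Dppa genes within each library, on axes that start at 0; circles are replicate 1 and triangles replicate 2. The Dppa2 to Dppa4 ratio is 2.06 and 2.26 in control and between 2.54 and 3.23 in the treated libraries.

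Levels were compared between genes per kilobase of transcript. Dppa5a stood at 2630 CPM per kb in control, 2420 at 3 h and 2036 at 6 h. Dppa2 stood at 80.9, 87.9 and 101 CPM per kb, and Dppa4 at 62.1, 53.9 and 58.5 CPM per kb. Dppa3 was far below them, at 0, 0.371 and 2.03 CPM per kb, and the order of the 4 genes was the same in all 3 groups. The labels do not say whether reads cover whole transcripts, so these values assume that they do.

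Genes with the most similar pattern were sought over the 6 libraries, as the root-mean-square difference of log2 CPM after centring each gene. The search covered 5285 genes with a mean of at least 20 CPM. It left out mitochondrially encoded genes and symbols that start with Gm, AI, AW, BC or LOC and a digit. Symbols that hold Rik, -ps or -rs were left out too. The nearest to Dppa2 were Ltn1 (0.0355), Rai14 (0.0408) and Sfswap (0.0418). Nearest to Dppa4 were Rer1 (0.0184), Rchy1 (0.0306) and Zrsr2 (0.0344), and nearest to Dppa5a were Med4 (0.0258), Ndufa3 (0.028) and Cct5 (0.028). No such genes are given for Dppa3, since its log2 values in both control libraries come from 0 counts and are set by the offset of 0.5 counts added before taking logarithms.

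Other genes of the biology around the 4 members were taken from 6 lists, of which 80 genes were tested, each counted once here. At 3 h 6 rose and 1 fell, at 6 h 10 rose and 17 fell, and from 3 h to 6 h 0 rose and 4 fell. The 10 include Nkx2-5, whose 6 h call is not counted as a result, as described below. Over all tested genes 4.9%, 29% and 1.64% were called in these comparisons. Their median log2 difference was 0.01 at 3 h and -0.10 at 6 h, beside 0.02 and 0.04 for all tested genes. The count at 3 h was 1 without either 3 h library, that at 6 h was 11 without 6 h library 2, and that from 3 h to 6 h was 0 without any one of the 4 treated libraries. With library totals alone the 6 h falls of Pcna (-0.13, edgeR adjusted p = 0.233), Trim28 (-0.32, 0.0777), Ifitm3 (-0.27, 0.0964), Kit (-0.47, 0.0878), Ooep (-0.17, 0.392) and Eef1a1 (-0.14, 0.25), described below, did not pass.

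Among 26 markers of undifferentiated stem cells, the state that Dppa5a, Dppa2 and Dppa4 mark, 4 rose and 1 fell at 3 h, and 3 rose and 9 fell at 6 h (median log2 -0.20), where edgeR called 3.6% of all tested genes higher and 1.3% lower at 3 h, and 14.8% and 14.3% at 6 h. Tfcp2l1, a transcription factor of naive pluripotency, was at 162 and 170 CPM in control, 80.6 and 69.1 CPM at 3 h, and 55.1 and 61.4 CPM at 6 h. It fell by 1.15 on the log2 scale at 3 h (edgeR adjusted p = 0.00302) and by 1.51 at 6 h (0.000265). Zfp42, also called Rex1, fell by 0.98 (0.000509) and Sox15 by 0.78 (0.00487), the call of Sox15 being lost without 6 h library 2 (0.0507). At 3 h the risers were Klf2 (1.01, edgeR adjusted p = 0.0286), Tbx3 (0.87, 0.0267), Sox2 (0.68, 0.00841) and Klf4 (0.62, 0.0215). All 4 encode transcription factors, as does Tfcp2l1, which fell. None of these 4 calls held without either 3 h library (adjusted p of 0.0719 to 0.17), and those of Klf2, Klf4 and Tbx3 were also lost without control library 2 (0.0657, 0.0521 and 0.0568). That of Tbx3 was lost without 6 h library 1 (0.0604) or 2 (0.059) as well, and the list's count was 1 without either 3 h library. Without 6 h library 2, 6 markers were called at 6 h.

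Of 30 genes listed around the 2-cell-like state and downstream of Dppa2 and Dppa4, 12 are rows of the files. Of these 6 were tested (median log2 -0.36 at 3 h and -0.90 at 6 h). The 6 include genes known for other roles, such as Syce1 and Nkx2-5, so the medians do not measure 2-cell embryo genes alone. Most abundant of these was Eif1ad, at 80.1 and 95.7 CPM in control, 76.2 and 83.8 CPM at 3 h, and 67.8 and 68.4 CPM at 6 h. Its log2 difference at 6 h was -0.37 (edgeR adjusted p = 0.0711) and that of Zfp352 was -1.43 (0.0713), so neither passed. Syce1, a gene of the meiotic synaptonemal complex, was at 20.5 and 25.9, 18.4 and 12.4, and 19.8 and 16.8 CPM in the same order, and did not pass. Zscan4a had 16 and 0 counts in the control libraries, 7 and 13 at 3 h, and 0 and 5 at 6 h, and Zscan4c had 0 and 12, 1 and 12, and 0 and 12 counts. Replicates therefore differed as much as groups for both. Nkx2-5, a cardiac transcription factor, was the 1 gene of the list called at 6 h (log2 2.61 ± 0.75, edgeR adjusted p = 0.0317), with 5 and 2 counts in control and 81 and 33 at 6 h, where 29% of all tested genes were called. That call was lost without control library 1 (0.0662), control library 2 (0.0854), 6 h library 1 (0.226) or 6 h library 2 (0.0688), by limma-voom (0.0933) and in thinned libraries (0.0511). At 3 h edgeR and DESeq2 called 0 of the 6. By edgeR 1 had an unadjusted p under 0.05, beside 3149 of all 12755 tested genes.

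Of 17 tested genes of DNA methylation, in which Dppa3 acts, 1 rose and 5 fell at 6 h (median log2 -0.07), beside 14.8% and 14.3% of all tested genes. Uhrf1, whose protein Dppa3 binds, was at 159 and 174 CPM in control, 165 and 150 CPM at 3 h, and 167 and 167 CPM at 6 h. Its groups overlapped. Pcna, the replication clamp, fell by 0.49 (edgeR adjusted p = 0.00422), and Trim28, a corepressor at imprinted loci and repeats, by 0.67 (0.00686). Uhrf2, a relative of Uhrf1, rose by 0.79 (0.0079), a call lost without 6 h library 2 (0.0679), without which 2 genes of the list were called. At 3 h edgeR called 0 of 17 and DESeq2 called 3, where DESeq2 called 1447 of all tested genes. By edgeR 5 had an unadjusted p under 0.05, beside 3149 of all 12755 tested genes.

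Of 19 tested germ line genes, 2 rose and 2 fell at 6 h (median log2 0.28), where 29% of all tested genes were called. Prdm1 and Tfap2c rose by 2.16 (edgeR adjusted p = 0.0198) and 1.19 (0.0119) on the log2 scale. Prdm1 was at 1.33 and 0.488 CPM in control and 4.95 and 3.72 CPM at 6 h. Ifitm3 fell by 0.62 (0.00508) and the receptor Kit by 0.82 (0.0124). The call of Prdm1 was lost without control library 2 (0.0546), 6 h library 1 (0.105) or 6 h library 2 (0.0647), that of Tfap2c without 6 h library 1 (0.051) or 2 (0.0773), and that of Kit without 6 h library 1 (0.0912). Without 6 h library 1 the list held 1 call and without 6 h library 2 it held 2. At 3 h edgeR called 0 of 19 and DESeq2 called 2, where DESeq2 called 1447 of all tested genes. By edgeR 5 had an unadjusted p under 0.05, beside 3149 of all 12755 tested genes. Leaving out control library 1 or 2 gave 1 and 2 calls at 3 h.

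Of 5 tested KH-domain relatives of Dppa5a and their oocyte partners, 1 rose and 1 fell at 6 h, where 29% of all tested genes were called. Ooep, the KH-domain gene next to Dppa5a at a gap of 7.93 kb, was at 91.1 and 106 CPM in control, 67.0 and 80.6 CPM at 3 h, and 69.9 and 66.5 CPM at 6 h. It fell by 0.53 on the log2 scale at 6 h (edgeR adjusted p = 0.0251), the same direction as Dppa5a. Zbed3 rose by 0.73 (0.00612), a call lost without 6 h library 2 (0.0506). The call of Ooep was lost without control library 2 (0.0909), 6 h library 1 (0.091) or 6 h library 2 (0.136). Without 6 h library 2 this list held 0 calls. At 3 h edgeR and DESeq2 called 0 of the 5. By edgeR 2 had an unadjusted p under 0.05, beside 3149 of all 12755 tested genes.

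Of 14 tested genes listed as chromosomal neighbours of the Dppa genes, 2 rose at 3 h, where 3.6% of all tested genes were called higher, and 2 rose and 2 fell at 6 h. The share called at 6 h was near the 29% of all tested genes. Gdf3, 16.3 kb from Dppa3, was at 177 and 175 CPM in control, 178 and 178 CPM at 3 h, and 190 and 177 CPM at 6 h. Nanog, 77.2 kb from Dppa3, was at 6.00 and 10.01, 4.07 and 8.84, and 3.86 and 5.82 CPM, with groups that overlapped. Near Dppa5a, Mb21d1 (now Cgas, a DNA sensor, at 62.3 kb) rose by 1.44 at 3 h (edgeR adjusted p = 0.0188) and by 2.04 at 6 h (0.00119). Ddx43, a helicase gene at 27.6 kb, rose by 1.01 (0.034) and 1.08 (0.00704), while Eef1a1, the elongation factor gene at 110 kb, fell by 0.50 at 6 h (0.00516). Mb21d1 lost its 3 h call without 3 h library 1 (0.114) or 2 (0.089), and when fitted on the 4 libraries compared (0.0504). Ddx43 lost its 3 h call without any one of the 6 libraries (adjusted p of 0.0575 to 0.187) and its 6 h call without 6 h library 2 (0.0528). The list held 0 calls at 3 h without either 3 h library and 1 without control library 1 or either 6 h library, and 2 at 6 h without 6 h library 2. Khdc3, also on this list, is not a close neighbour, since it lies 5262614 bases from Dppa5a.

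**Figure D4:**
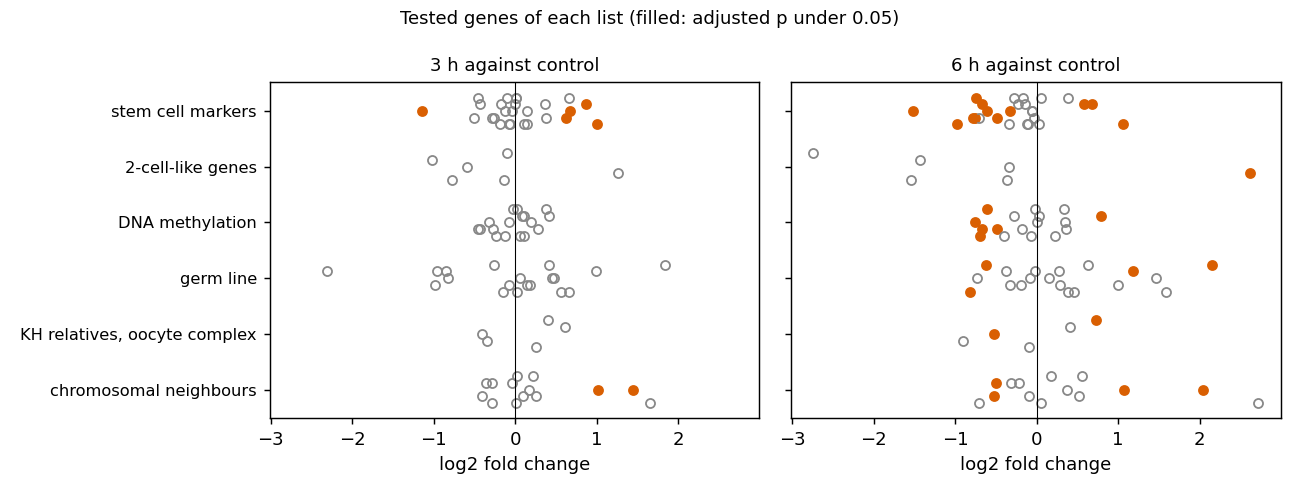
Log2 fold change against control at 3 h and 6 h for each tested gene of the 6 lists, 1 row of points per list, filled where the edgeR adjusted p was under 0.05. More stem cell markers are filled on the lower side at 6 h, 9 lower and 3 higher.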

How the data were processed

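Each library has 1 table of deposited read counts, which are whole numbers and not normalized. The RNA was polyadenylated, per the labels, and mm10 is named in the submitters' processing notes. The aligner, counting program, strandedness and any use of molecular identifiers are not given in the sources used here. The members and gene lists were chosen with earlier results of these data known. Named genes are the 4 members, up to 3 called genes per list by their p at 6 h (smallest first), and every called gene where fewer than 5 of a list were called. Klf2, Klf4, Tbx3, Sox2, Eras, Eif1ad, Zfp352 and Syce1 were named after their values were seen. Uhrf1, Gdf3, Nanog, Zscan4a, Zscan4c and Khdc3 were not called and are also named outside that rule.

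Counts from all 6 libraries were filtered (edgeR filterByExpr, minimum 10 counts, total 15), scaled by TMM and fitted with 1 mean per group (edgeR 4.0.16, R 4.3.3, 3 residual degrees of freedom), and p-values were adjusted by Benjamini-Hochberg over 12755 genes. The fit was tested on simulated data with 200 genes changed. At 3 h 16 of 141 calls were false and 53.6% of changes of 1 on the log2 scale were recovered (12487 genes). At 6 h these values were 18 of 160 and 56.1% (12495 genes), and between the times 6 of 125 and 44.3% (12484 genes). Against control, false calls were thus a larger share than the threshold of 0.05 implies, at 3 h and at 6 h. The simulated data changed far fewer genes than the 29% of tested genes called at 6 h, so these shares may not carry over. Alternatives used limma 3.58.1, DESeq2 1.42.0, other scalings, filters, thinning and leaving out each library. Replicates differed beyond counting noise (chi-square per degree of freedom 18.7 to 27.7). Windows and coordinates came from GENCODE M21 transcripts.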

Additional observations from a re-analysis of the deposited data

Results flagged for a closer look

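The Dppa genes gave no result of this kind. For 4 stem cell markers the effect of 6 h differed from that of 3 h by the fitted contrast between the times. Zfp42 was lower by 0.795 on the log2 scale at 6 h than at 3 h (-0.795, edgeR adjusted p = 0.00879), with -0.19 at 3 h and -0.98 at 6 h against control. Sox2 differed by -0.727 (0.0106), with 0.68 and -0.05, and Klf4 by -0.656 (0.0294), with 0.62 and -0.04. Eras differed by -1.13 (0.00835), with 0.38 and -0.75. Each of these calls was lost without any one of the 4 treated libraries, with adjusted p reaching 0.122 for Zfp42, 0.134 for Sox2, 0.224 for Klf4 and 0.115 for Eras. With library totals alone the difference of Klf4 between the times was -0.53 and did not pass (edgeR adjusted p = 0.0638), while those of Zfp42, Sox2 and Eras passed. Against control at 6 h, Eras was then at -0.40 and did not pass (edgeR adjusted p = 0.0543). Sox2 was then called higher at 6 h (0.31, edgeR adjusted p = 0.0361). Groups of 2 libraries were not checked for single outlying values.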

How the results depend on the processing

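Of 187 alternative values for the 4 Dppa genes, 178 kept their direction and their side of the threshold. These include values of Dppa3 against control, which was tested only because its 6 h counts were high, so they say nothing of its stability. The 50-count filter left Dppa3 untested. With library totals alone Dppa4 reversed at 3 h (0.023) and 6 h (0.27) and Dppa5a at 3 h (0.11). In that setting Dppa2 at 6 h passed (0.68) and Dppa5a at 6 h did not (-0.014), and Dppa2 at 6 h also passed with the 50-count filter (0.35). With library totals the share of calls that were higher went from 73.4% to 95.8% at 3 h, from 50.8% to 88.1% at 6 h and from 27.8% to 56.5% between the times. Zfp42 (0.040) and Kit (0.074) at 3 h, Klf4 (0.32) and Sox2 (0.31) at 6 h and Ooep between the times (0.014) reversed with library totals too, and limma-voom reversed Klf2 between the times (-0.000747). The cause of these changes was not tested.

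At 3 h edgeR called 625 genes, 7 of them listed. Library totals gave 1373 and 14, no filter 1816 and 15, DESeq2 1447 and 15, and only the 4 libraries compared 236 and 4. By list, library totals called 2 methylation, 2 germ line and 1 KH-domain gene, no filter 8 stem cell, 3 methylation and 3 germ line genes, and DESeq2 8, 3 and 2. Of the neighbours limma-voom called 1 and the 4 libraries 0. At 6 h the 2-cell list held 2 calls without a filter or by DESeq2 and 0 with the 50-count filter or thinned libraries, and the KH-domain list 1 with library totals. Between the times 209 genes were called, 4 of them listed. No filter gave 1063 and 8 (1 methylation gene and 1 neighbour), DESeq2 688 and 7 (1 methylation and 1 germ line gene), limma-voom 508 and the 4 libraries 571.

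Leaving out 1 library at a time gave 97 to 1032 genes at 3 h (97 without 3 h library 1, 102 without 3 h library 2), 1273 to 3628 at 6 h (1273 without 6 h library 2, 1761 without 6 h library 1) and 12 to 596 between the times. A group left with 1 library was assumed to vary like the others. Listed calls were 1 to 7, 11 to 27 and 0 to 5 in that order. By list at 3 h they were 1 to 5 for stem cell markers, 0 to 2 for germ line genes and 0 to 2 for neighbours. At 6 h they were 6 to 11 for stem cell markers, 0 to 1 for 2-cell genes, 2 to 6 for methylation, 1 to 5 for germ line genes, 0 to 2 for the KH-domain list and 2 to 6 for neighbours, and between the times 0 to 5 for stem cell markers. Dppa5a at 6 h ranged from -0.41 to -0.33. The direction turned for Sox2 at 6 h (-0.14 to 0.052, the highest without control library 2) and Klf4 at 6 h (-0.13 to 0.049, the highest without 6 h library 1). Between the times it turned for Prdm1 (-0.069 to 0.86) and Ddx43 (-0.16 to 0.33), lowest without 3 h library 1, for Ooep (-0.24 to 0.027, the highest without 3 h library 2) and for Klf2 (-0.35 to 0.36, the lowest without 6 h library 2).

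The titles share replicate numbers, but same-numbered libraries did not deviate together (correlations of 0.0869, -0.0208 and 0.0149). A fit with the replicate block changed no call of a Dppa gene, and between the times it gave 126 calls. Depth limits Dppa3, which had 0 counts over the control group and 10 over the 3 h group.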
